A study of Saccharomyces cerevisiae with 12 samples.

Results

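Genes for the synthesis of amino acids outside the branched-chain and sulfur families were followed in wild-type *S. cerevisiae* JN54 under heat shock. They were chosen by name and cover the aromatic, tryptophan, histidine, lysine, arginine, serine, homoserine and threonine, glutamate and glutamine, asparagine and proline pathways. The choice was made with earlier results of these data known. Of 49 listed genes, 44 were matched to a probe, out of 6019 genes and open reading frames measured in all. *ARO1*, *HIS3*, *ARG5,6*, *THR4* and *GLT1* were not matched and are not analysed here. The filter on missing values removed no member.

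JN54 cells (*MATa*) were grown in YPD, a rich medium, at 30°C to the logarithmic phase and then exposed to 43°C for 60 or 30 min. Control cells were kept at 30°C for the same time. In each of 3 experiments at each time, Cy5-labelled cDNA of the heat-shocked cells and Cy3-labelled cDNA of the control cells shared 1 cDNA microarray, called array 1, 2 or 3 after its experiment. The paper's genotype gives JN54 mutant alleles of *HIS3*, *LEU2*, *URA3*, *TRP1* and *LYS2*, of which those of *TRP1* and *LYS2* are read here as deletions. Heat-shocked and control cells share these alleles. The paper calls the experiments independent and does not say whether each had a culture of its own, so p-values measure the spread between these arrays. No dye swap is described, so the dye and the treatment cannot be told apart. Each array had a high and a low power scan with identical values and was counted once. The median of an array lay between -0.01 and 0.03 on the log2 scale, and its median absolute deviation between 0.38 and 0.70, with experiment 3 lowest at each time.

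Yeast makes most of its amino acids from a few intermediates of central metabolism. The aromatic acids share the route to chorismate, the aspartate family (threonine among them) shares the route to homoserine, and glutamate and glutamine give the nitrogen for nearly all others. When an amino acid runs short, the transcription factor Gcn4 raises the enzymes of many of these pathways together, which is known as general amino acid control. Single pathways have controls of their own as well. Lysine enzymes answer to Lys14, arginine enzymes to the Arg80 and Arg81 complex, and the nitrogen assimilation enzymes to the GATA factors.

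More of these genes fell than rose after heat shock. The ratios are those of heat-shocked over control cells, read as log2 values. A gene is said to rise or fall where its mean ratio differed from 0 at an adjusted p under 0.05 by limma, a linear model fitted over all genes. By this test 27 of the 44 members fell and 3 rose at 60 min, where 18.2% of all genes fell and 15.6% rose. At 30 min 21 members fell and 3 rose, where 15.9% and 10.7% of all genes did. Under the paper's rule, a ratio over 2 in at least 2 of the 3 experiments, 22 members were down and 1 was up at 60 min, against 10.5% and 6.89% of all genes. At 30 min 15 were down and 2 up by that rule, against 10.2% and 4.42% of all genes.

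The median log2 ratio of the members was -0.93 at 60 min and -0.62 at 30 min, and that of all genes was 0.01 and -0.01. All 3 arrays lay below 0 for 33 members at 60 min and for 32 at 30 min, against 28.2% and 35.1% of all genes. They lay above 0 for 4 members at 60 min and 7 at 30 min, against 27.7% and 34.0% of all genes. The members that fell at both times numbered 20 (11.5% of all genes did so). Another 7 fell at 60 min alone and 1 at 30 min alone (402 and 266 of all 6019 genes did so). *ARG3* and *GLN1* rose at both times (7.63% of all genes did so). *ARG8* rose at 60 min alone and *HIS4* at 30 min alone (482 and 188 of all 6019 genes did so). The remaining 12 members passed at neither time, or 10 without the deleted markers *TRP1* and *LYS2*. Of all 6019 genes, 3530 passed at neither time. The calls at 30 min rest on few arrays, since with 30 min array 1, 2 or 3 left out 12, 9 and 14 members fell there, all among the 21, while 7.33%, 6.93% and 10.9% of all genes did. With 60 min array 2 left out, 21 members fell at 60 min (13.5% of all genes did), and 11 were down by the paper's rule (6.31% of all genes), which then asks for both experiments left.

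Pathways differed in their medians. At 60 min the median was lowest for homoserine and threonine (-1.92), followed by the genes listed as shared aromatic (-1.33), asparagine (-1.22), lysine (-1.16) and tryptophan (-0.95). Histidine (-0.75), serine (-0.58) and proline (-0.54) came next, and the medians of glutamate and glutamine (0.06) and of arginine (0.58) lay above 0. At 30 min the medians in the same order were -1.66, -1.32, -1.09, -0.69, -1.11, -0.38, -0.23, -0.59, 0.14 and 0.20. These are descriptions without a test, and at 60 min neighbours in the order overlap in their arrays. The arginine median was 1.14, -0.09 and 0.10 in experiments 1, 2 and 3 of 60 min, and 0.78, -0.04 and -0.14 at 30 min, so its place above 0 rests on experiment 1. Glutamate and glutamine had 3 measured genes, and the median is the mean of *GDH3*. At 60 min *GDH3* stood between *GDH1* (-2.42) and *GLN1* (0.72). That median was -0.45, 0.43 and 0.08 in experiments 1, 2 and 3 of 60 min.

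**Figure D1:**
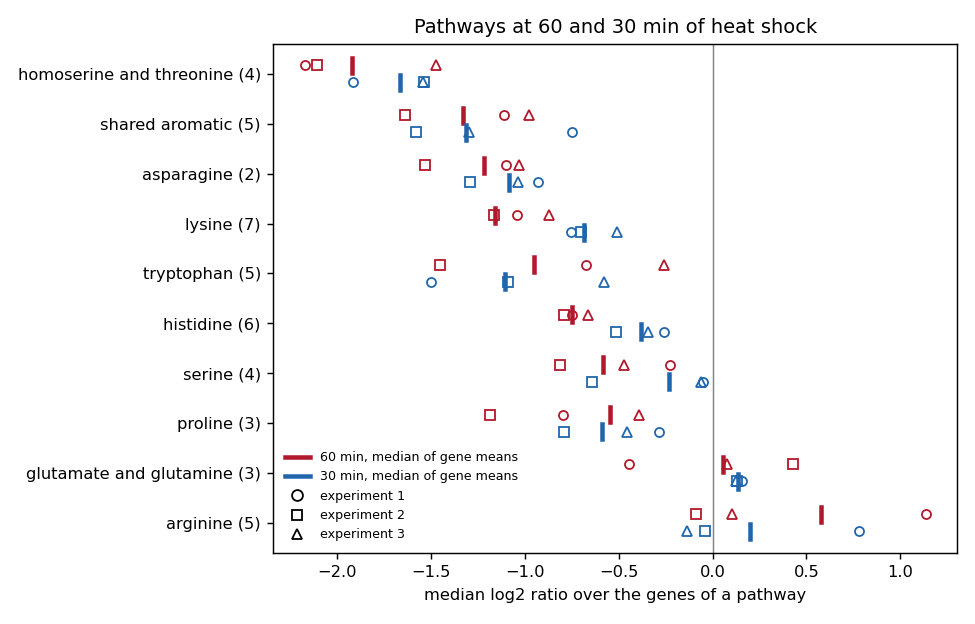
Median log2 ratio (heat-shocked over control) of the measured genes of each pathway, with the number of genes in brackets, at 60 min (red) and 30 min (blue). Symbols are the medians in single arrays and bars the median of the gene means, which runs from -1.92 for homoserine and threonine to 0.58 for arginine at 60 min.

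The homoserine and threonine pathway had the lowest median, and of its 4 measured genes 4 fell at 60 min and 3 at 30 min. *HOM2* (YDR158W), the aspartate semialdehyde dehydrogenase, had log2 ratios of -2.85, -2.87 and -2.28 in the 3 experiments of 60 min and -2.06, -1.65 and -1.77 in those of 30 min. All arrays were low and the times did not overlap. The mean was -2.67 ± 0.34 at 60 min (SD, n = 3, adjusted p = 2.74e-05), or 6.35-fold lower than in control cells, and -1.82 ± 0.21 at 30 min (SD, n = 3, adjusted p = 0.000265). *THR1* (YHR025W), the homoserine kinase, had -2.13, -2.16 and -1.55 at 60 min and -2.996, -1.87 and -2.07 at 30 min. It was 3.86-fold lower at 60 min (adjusted p = 0.000321) and 4.97-fold lower at 30 min (adjusted p = 0.000204). *HOM6* (YJR139C), the homoserine dehydrogenase, had -2.21, -2.05 and -1.40 at 60 min (adjusted p = 0.000197) and -1.77, -1.42 and -1.31 at 30 min (adjusted p = 0.00100). These 3 genes fell at both times in every alternative tried. *HOM3* (YER052C), the aspartate kinase that opens the route, fell less, by 0.90 ± 0.37 at 60 min (SD, n = 3, adjusted p = 0.00998, but 0.0665 with each print block centred). At 30 min it had -0.35 ± 0.22 (SD, n = 3, adjusted p = 0.251).

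Besides genes of the route to chorismate, the shared aromatic list held *ARO7* and *ARO8*, whose enzymes act after chorismate. *ARO8* (YGL202W), an aromatic aminotransferase, had log2 ratios of -2.13, -2.17 and -1.53 at 60 min and -1.97, -1.58 and -1.32 at 30 min. It was 3.85-fold lower at 60 min (adjusted p = 0.000161) and 3.08-fold lower at 30 min (adjusted p = 0.00061). *ARO2* (YGL148W), the chorismate synthase, had -1.11, -1.64 and -1.24 at 60 min, but -0.09, -2.07 and -1.79 at 30 min, where experiment 1 stood near 0. Its mean was -1.33 ± 0.28 at 60 min (SD, n = 3, adjusted p = 0.0120) and -1.32 ± 1.07 at 30 min (SD, n = 3, adjusted p = 0.0155). The calls of *ARO2* were lost leaving out 60 min array 2 at 60 min (adjusted p = 0.0665), and leaving out 30 min array 2 or 3 at 30 min (adjusted p = 0.165 and 0.0994). Without array 3 of both times they were lost as well (adjusted p = 0.0634 at 60 min and 0.145 at 30 min). *ARO7* (YPR060C), the chorismate mutase, had means of -0.56 ± 0.37 at 60 min (SD, n = 3, adjusted p = 0.0627, but 0.0361 leaving out 60 min array 3) and -0.29 ± 0.04 at 30 min (SD, n = 3, adjusted p = 0.318).

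The entry to the route to chorismate is made by a pair of isoenzymes of DAHP synthase. *ARO4* (YBR249C), the form inhibited by tyrosine, had -1.46, -2.35 and -0.98 at 60 min and -2.16, -2.63 and -1.30 at 30 min, or 3.03-fold (adjusted p = 0.00314) and 4.08-fold lower (adjusted p = 0.00103). *ARO3* (YDR035W), the form inhibited by phenylalanine, had -0.13, -1.02 and -0.29 at 60 min (adjusted p = 0.136) and -0.75, -1.34 and -1.04 at 30 min (adjusted p = 0.00891). It is the single member that fell at 30 min alone, and that call was lost leaving out 30 min array 2 (adjusted p = 0.106) or array 3 of both times (adjusted p = 0.0709). *ARO3* had the higher ratio of the pair in each of the 6 arrays. Whether the probes of such pairs also bind the transcript of the other gene was not tested. *HIS7* (YBR248C), of histidine synthesis, lies next to *ARO4* with no coding gene between them, the closest of any members. It had means of -0.22 ± 0.19 at 60 min (SD, n = 3, adjusted p = 0.464) and -0.35 ± 0.43 at 30 min (SD, n = 3, adjusted p = 0.263).

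Of the 5 tryptophan genes, 4 fell at both times. *TRP4* (YDR354W), the anthranilate phosphoribosyltransferase, had log2 ratios of -2.16, -1.74 and -1.08 at 60 min and -1.50, -1.23 and -0.58 at 30 min. Its adjusted p was 0.000933 at 60 min and 0.0112 at 30 min, and 0.115 and 0.0961 there leaving out 30 min array 1 or 2. *TRP3* (YKL211C), which joins anthranilate synthase and indoleglycerol phosphate synthase activities, had -0.51, -1.03 and -1.31 at 60 min (adjusted p = 0.00993, but 0.0602 leaving out 60 min array 3 and 0.0866 leaving out array 3 of both times) and -1.34, -1.60 and -0.95 at 30 min (adjusted p = 0.00255). *TRP2* (YER090W), the anthranilate synthase, had -0.67, -2.39 and -0.24 at 60 min, a wide spread in which experiment 2 was low, and -1.56, -1.09 and -0.57 at 30 min. Its calls lay close to the threshold (adjusted p = 0.0376 at 60 min and 0.0496 at 30 min). They were lost at 60 min when 60 min array 2 (adjusted p = 0.251) or 30 min array 2 (adjusted p = 0.0593) was left out, with array weights (adjusted p = 0.125) and with 60 min fitted alone (adjusted p = 0.0528), and at 30 min leaving out any 30 min array (adjusted p of 0.0679 to 0.28) or array 3 of both times (adjusted p = 0.0718). *TRP5* (YGL026C), the tryptophan synthase, fell by 0.84 ± 0.60 at 60 min (SD, n = 3, adjusted p = 0.0324, but 0.0697 with 60 min fitted alone and 0.138 with array weights) and 1.14 ± 0.45 at 30 min (SD, n = 3, adjusted p = 0.0103). Its call at 60 min was lost leaving out 60 min array 1 or 2 (adjusted p = 0.0585 and 0.182) or 30 min array 2 (adjusted p = 0.0574), and that at 30 min leaving out 30 min array 1 or 2 (adjusted p = 0.113 and 0.0664).

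The auxotrophic markers measured among the members passed the test at neither time. *TRP1* (YDR007W), the phosphoribosylanthranilate isomerase, had log2 ratios of 0.10, 0.24 and -0.06 at 60 min and 0.91, 0.56 and 0.18 at 30 min, and was the single tryptophan gene with means above 0. The mean was 0.09 ± 0.15 at 60 min (SD, n = 3, adjusted p = 0.766) and 0.55 ± 0.37 at 30 min (SD, n = 3, adjusted p = 0.0796, but 0.0132 with array weights, 0.0363 with 30 min fitted alone and 0.0439 after scaling of the arrays). *LYS2* (YBR115C), the aminoadipate reductase, had -0.22, -0.61 and -0.0049 at 60 min and -0.04, -0.12 and -0.51 at 30 min, and did not pass (adjusted p = 0.336 and 0.450). A probe for a deleted gene has no transcript of its own to bind. The files hold no intensities, so whether these spots exceeded the background was not tested, and their ratios may not be those of the genes. Both stay in the counts and medians given here, and without them 42 members have medians of -0.99 at 60 min and -0.66 at 30 min, with 27 and 21 that fell and 3 that rose at each time. The tryptophan medians are then -1.03 at 60 min and -1.13 at 30 min, and the lysine medians -1.16 and -0.85. *LEU2* (YCL018W), a marker of leucine synthesis that is no member, had -3.04, -2.69 and -3.60 at 60 min and -2.05, -1.88 and -2.09 at 30 min, and fell at both times (adjusted p = 1.23e-05 and 0.000208). *HIS3* and *URA3* were not matched to a probe.

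**Figure D2:**
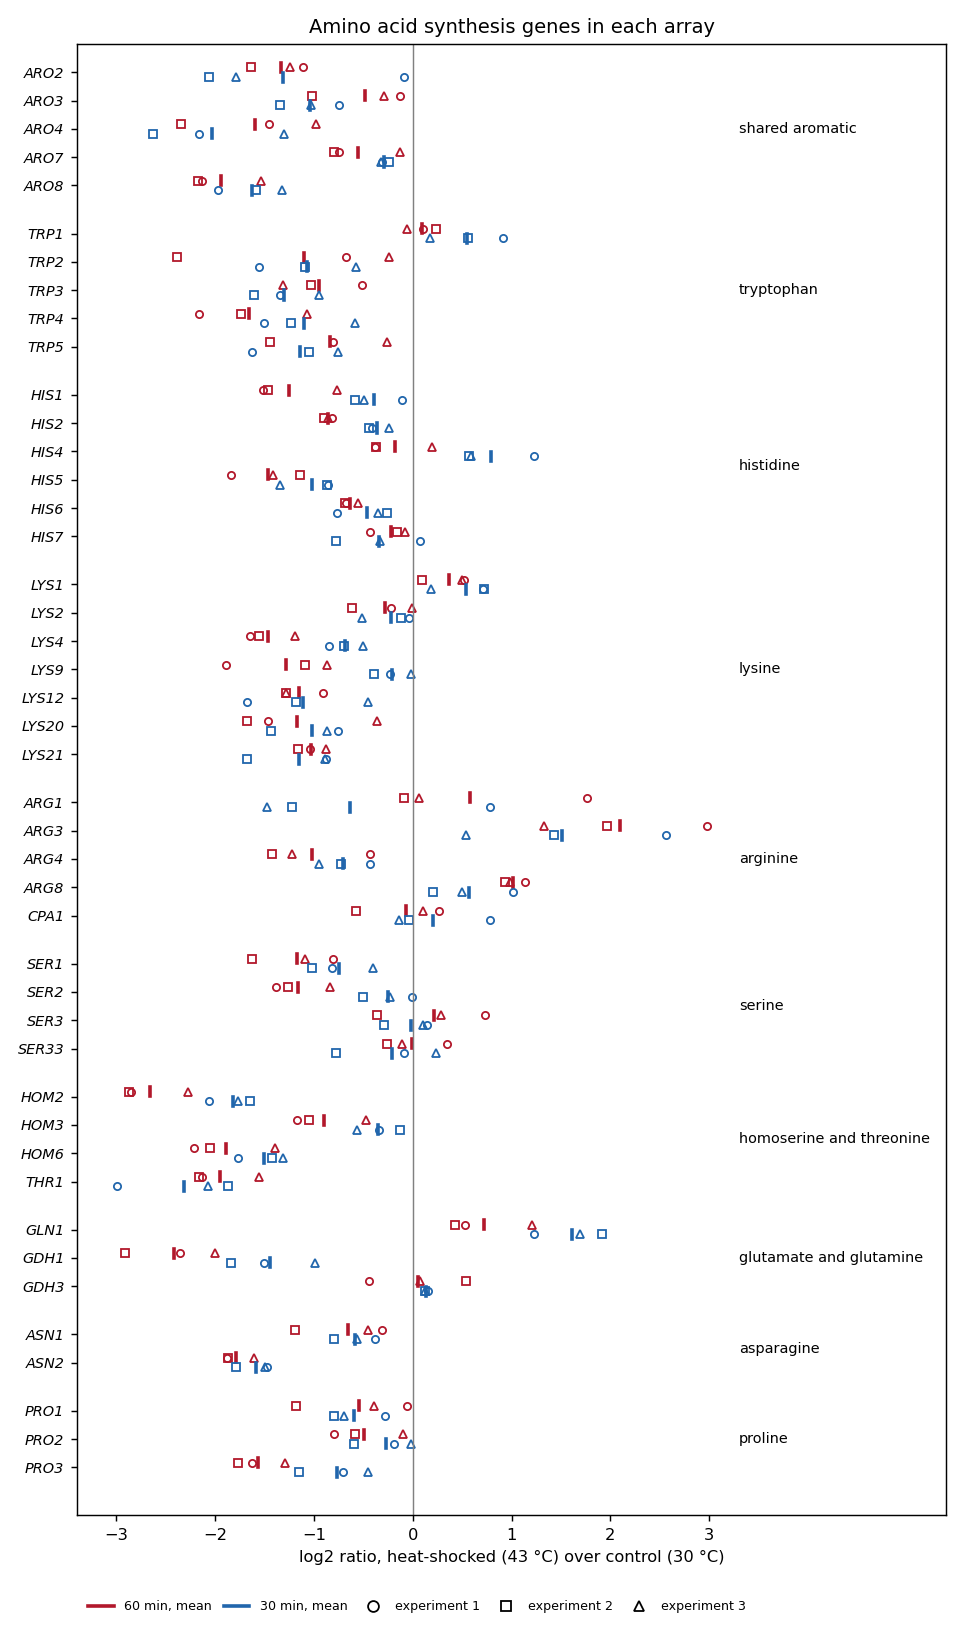
Log2 ratio (heat-shocked over control) of each measured gene in every array, by pathway, at 60 min (red) and 30 min (blue). Symbols are the 3 experiments and bars their mean, and *HOM2* has the lowest mean at 60 min, with arrays from -2.87 to -2.28.

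Of the 6 histidine genes, 4 fell at 60 min and 1 at 30 min. *HIS5* (YIL116W), the histidinol phosphate aminotransferase, had log2 ratios of -1.84, -1.14 and -1.41 at 60 min (adjusted p = 0.00071) and -0.86, -0.87 and -1.34 at 30 min (adjusted p = 0.00705, but 0.0635 leaving out 30 min array 3 and 0.0858 leaving out array 3 of both times). *HIS1* (YER055C), the ATP phosphoribosyltransferase of the entry step, fell by 1.25 ± 0.42 at 60 min (SD, n = 3, adjusted p = 0.00214). *HIS2* (YFR025C), the histidinol phosphatase, fell by 0.86 ± 0.04 at 60 min (SD, n = 3, adjusted p = 0.00679), and *HIS6* (YIL020C), an isomerase of the pathway, by 0.64 ± 0.07 (SD, n = 3, adjusted p = 0.0324). At 30 min their means lay between -0.46 and -0.36 without passing (adjusted p of 0.113 to 0.211), but all 3 fell there with array weights (adjusted p of 0.0398 to 0.0481), and *HIS2* and *HIS6* also with each print block centred (adjusted p = 0.0419 and 0.0494). The call of *HIS2* at 60 min was lost when array 3 of both times was left out (adjusted p = 0.0514). That of *HIS6* was lost leaving out any 60 min array or 30 min array 2 or 3 (adjusted p of 0.0559 to 0.082), without array 3 of both times (adjusted p = 0.115), with array weights (adjusted p = 0.0745) and with 60 min fitted alone (adjusted p = 0.122). *HIS4* (YCL030C), which encodes an enzyme for several steps and is a classic target of Gcn4, went the other way at 30 min. It had -0.38, -0.37 and 0.20 at 60 min and 1.22, 0.57 and 0.59 at 30 min, with no overlap between the times. The mean was -0.18 ± 0.33 at 60 min (SD, n = 3, adjusted p = 0.559) and 0.80 ± 0.37 at 30 min (SD, n = 3, adjusted p = 0.0253). That rise was lost leaving out 30 min array 1, 2 or 3 (adjusted p = 0.23, 0.0962 and 0.0655) or array 3 of both times (adjusted p = 0.0766).

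Of the 7 lysine members, 5 fell at 60 min and 4 at 30 min, and 0 rose. *LYS5* (YGL154C), a lysine gene outside the members, rose at 60 min, with 0.68, 0.43 and 0.56 (adjusted p = 0.0487). At 30 min *LYS5* had 0.36, 0.04 and 0.16 and did not pass (adjusted p = 0.498). *LYS20* (YDL182W) and *LYS21* (YDL131W) encode isoenzymes of homocitrate synthase. *LYS20* had log2 ratios of -1.46, -1.68 and -0.36 at 60 min and -0.76, -1.43 and -0.87 at 30 min, and *LYS21* had -1.04, -1.16 and -0.88 at 60 min and -0.88, -1.68 and -0.89 at 30 min. Both fell at both times, by a mean of 1.17 and 1.03 at 60 min (adjusted p = 0.00865 and 0.00616) and 1.02 and 1.15 at 30 min (adjusted p = 0.0200 and 0.00433). The call of *LYS20* was lost at 60 min leaving out 60 min array 2 (adjusted p = 0.0563) or with array weights (adjusted p = 0.0571), and at 30 min leaving out 30 min array 1, 2 or 3 (adjusted p = 0.0708, 0.18 and 0.063). That of *LYS21* was lost at 30 min leaving out 30 min array 2 (adjusted p = 0.0748). *LYS12* (YIL094C), the homoisocitrate dehydrogenase, had -0.91, -1.28 and -1.28 at 60 min (adjusted p = 0.00581) and -1.68, -1.19 and -0.46 at 30 min (adjusted p = 0.00887, but 0.109 and 0.0789 leaving out 30 min array 1 or 2).

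*LYS4* (YDR234W), the homoaconitase, fell by 1.46 ± 0.24 at 60 min (SD, n = 3, adjusted p = 0.000452) and 0.69 ± 0.17 at 30 min (SD, n = 3, adjusted p = 0.0298), a call lost at 30 min leaving out 30 min array 1, 2 or 3 (adjusted p = 0.2, 0.171 and 0.0781) or array 3 of both times (adjusted p = 0.0892). *LYS9* (YNR050C), which makes saccharopine, fell by 1.28 ± 0.54 at 60 min (SD, n = 3, adjusted p = 0.00251) and had -0.21 ± 0.19 at 30 min (SD, n = 3, adjusted p = 0.521). *LYS1* (YIR034C), the saccharopine dehydrogenase of the last step, had positive ratios in all 6 arrays. Its means were 0.37 ± 0.24 at 60 min (SD, n = 3, adjusted p = 0.202) and 0.54 ± 0.31 at 30 min (SD, n = 3, adjusted p = 0.0843, but 0.016 with each print block centred, 0.0337 with 30 min fitted alone, 0.0493 after scaling of the arrays and 0.00976 with array weights).

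Of the 5 arginine genes, 2 rose and 1 fell at 60 min, and 1 rose and 1 fell at 30 min. *ARG3* (YJL088W), the ornithine carbamoyltransferase, had log2 ratios of 2.98, 1.97 and 1.33 at 60 min and 2.57, 1.43 and 0.54 at 30 min, with experiment 1 highest and experiment 3 lowest at each time. It was 4.27-fold higher at 60 min (adjusted p = 0.00221) and 2.85-fold higher at 30 min (adjusted p = 0.0145), where the call was lost leaving out 30 min array 1 or 2 (adjusted p = 0.149 and 0.0797). *ARG8* (YOL140W), the acetylornithine aminotransferase, had 1.14, 0.94 and 0.98 at 60 min, or 2.03-fold higher (adjusted p = 0.00541). At 30 min it had 1.02, 0.20 and 0.50 (adjusted p = 0.0727, but 0.0473 leaving out 60 min array 1 and 0.0246 to 0.0373 with print blocks centred, array weights, 30 min fitted alone or scaled arrays). *ARG4* (YHR018C), the argininosuccinate lyase of the last step, fell instead, with -0.43, -1.42 and -1.22 at 60 min (adjusted p = 0.00844) and -0.44, -0.73 and -0.95 at 30 min (adjusted p = 0.0496). The call at 60 min was lost when array 3 of both times was left out (adjusted p = 0.0744). At 30 min the call was lost after centring of the arrays on their medians (adjusted p = 0.0506) or of print blocks (adjusted p = 0.0873), leaving out any 30 min array (adjusted p of 0.12 to 0.217), leaving out 60 min array 3 (adjusted p = 0.06) and leaving out array 3 of both times (adjusted p = 0.244).

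*ARG1* (YOL058W), the argininosuccinate synthetase, varied most of the arginine genes between experiments. It had 1.76, -0.09 and 0.06 at 60 min and 0.78, -1.23 and -1.48 at 30 min, with experiment 1 highest at each time, and did not pass (adjusted p = 0.334 at 60 min and 0.297 at 30 min). With the experiment number as a replicate block it fell at 30 min (adjusted p = 0.0422). *CPA1* (YOR303W), the small subunit of carbamoyl phosphate synthetase, had means of -0.07 ± 0.45 at 60 min (SD, n = 3, adjusted p = 0.851) and 0.20 ± 0.51 at 30 min (SD, n = 3, adjusted p = 0.576). Experiment 1 was the highest of its time for *CPA1*, *ARG8* and *ARG4* as well, and so for every arginine member measured. This did not hold for *ARG2* (YJL071W), an arginine gene outside the members. It had -0.83, -0.09 and -0.55 at 60 min (adjusted p = 0.104) and -0.30, -0.10 and -0.51 at 30 min (adjusted p = 0.310). How often experiment 1 was highest among all genes was not counted.

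Nitrogen assimilation held both directions. *GLN1* (YPR035W), the glutamine synthetase, had log2 ratios of 0.53, 0.43 and 1.20 at 60 min and 1.23, 1.91 and 1.70 at 30 min, without overlap. It was 1.65-fold higher at 60 min (adjusted p = 0.0354) and 3.06-fold higher at 30 min (adjusted p = 0.000809). The call at 60 min was lost leaving out 60 min array 3 (adjusted p = 0.195), leaving out 30 min array 2 or 3 (adjusted p = 0.0591 and 0.057), without array 3 of both times (adjusted p = 0.262), after scaling of the arrays (adjusted p = 0.0592) and with 60 min fitted alone (adjusted p = 0.0984). *GDH1* (YOR375C), the NADP-dependent glutamate dehydrogenase of growth on glucose, had -2.36, -2.91 and -1.998 at 60 min and -1.51, -1.84 and -0.99 at 30 min. It was 5.36-fold lower at 60 min (adjusted p = 7.85e-05) and 2.73-fold lower at 30 min (adjusted p = 0.00206), in every alternative tried. Its isoenzyme *GDH3* (YAL062W) had -0.45, 0.54 and 0.08 at 60 min (adjusted p = 0.872) and 0.15, 0.13 and 0.12 at 30 min (adjusted p = 0.676).

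The asparagine synthetases both had negative ratios in all 6 arrays. *ASN2* (YGR124W) had -1.88, -1.87 and -1.61 at 60 min and -1.48, -1.79 and -1.50 at 30 min, or 3.45-fold (adjusted p = 0.000135) and 3.01-fold lower (adjusted p = 0.000362). *ASN1* (YPR145W) had -0.32, -1.20 and -0.45 at 60 min (adjusted p = 0.0476) and -0.38, -0.80 and -0.57 at 30 min (adjusted p = 0.0817). Its call at 60 min was lost leaving out 60 min array 2 or 3 (adjusted p = 0.239 and 0.0736) and leaving out any 30 min array (adjusted p of 0.0726 to 0.081) or array 3 of both times (adjusted p = 0.121), and at 30 min it fell leaving out 60 min array 1 or 2 (adjusted p = 0.0458 and 0.0382). With 60 min fitted alone or array weights the 60 min call was lost too (adjusted p = 0.136 and 0.0972), and at 30 min it fell with 30 min fitted alone, array weights, scaled arrays or print blocks centred (adjusted p of 0.00702 to 0.0491).

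**Figure D3:**
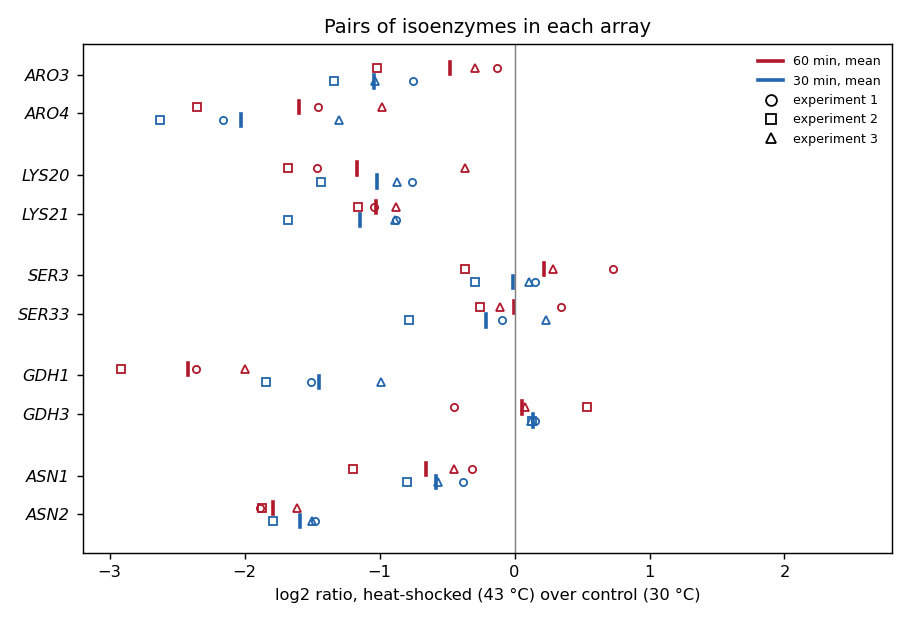
Log2 ratio (heat-shocked over control) of 5 pairs of isoenzymes in every array, at 60 min (red) and 30 min (blue), with symbols for the 3 experiments and bars for their mean. *GDH1* lies between -2.91 and -0.99 and *GDH3* between -0.45 and 0.54, while *LYS20* and *LYS21* overlap.

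In serine synthesis the entry enzymes passed at neither time. The later steps, *SER1* and *SER2*, fell at 60 min, and of these *SER1* alone fell at 30 min. *SER3* (YER081W) and *SER33* (YIL074C) encode isoenzymes of phosphoglycerate dehydrogenase. *SER3* had log2 ratios of 0.73, -0.36 and 0.29 at 60 min (adjusted p = 0.516) and 0.15, -0.29 and 0.10 at 30 min (adjusted p = 0.972). *SER33* had 0.35, -0.26 and -0.11 at 60 min (adjusted p = 0.986) and -0.09, -0.78 and 0.24 at 30 min (adjusted p = 0.532). *SER1* (YOR184W), the phosphoserine aminotransferase, had -0.80, -1.63 and -1.09 at 60 min (adjusted p = 0.00348) and -0.82, -1.02 and -0.41 at 30 min (adjusted p = 0.0346, but 0.178, 0.244 and 0.0587 leaving out 30 min array 1, 2 or 3 and 0.0817 leaving out array 3 of both times). *SER2* (YGR208W), the phosphoserine phosphatase, fell by 1.16 ± 0.29 at 60 min (SD, n = 3, adjusted p = 0.00234), and had -0.25 ± 0.25 at 30 min (SD, n = 3, adjusted p = 0.398).

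In proline synthesis the last enzyme was the lowest. *PRO3* (YER023W), the pyrroline carboxylate reductase, had -1.63, -1.77 and -1.29 at 60 min and -0.71, -1.15 and -0.46 at 30 min, or 2.96-fold (adjusted p = 0.00046) and 1.71-fold lower (adjusted p = 0.0245, but 0.117 and 0.231 leaving out 30 min array 1 or 2 and 0.0634 leaving out array 3 of both times). *PRO1* and *PRO2*, which encode the kinase and the reductase of the earlier steps, had negative ratios in every array, and their means lay between -0.59 and -0.27 without passing (adjusted p of 0.0989 to 0.382). *PRO1* fell at 60 min leaving out 60 min array 1 (adjusted p = 0.0413) and at 30 min leaving out 60 min array 1 or 2 (adjusted p = 0.0491 and 0.0435). It also fell at 30 min with 30 min fitted alone, array weights, scaled arrays or print blocks centred (adjusted p of 0.00875 to 0.0331).

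The ratios at 60 min were compared with those at 30 min in the same model. No member differed between the times at an adjusted p under 0.05 (lowest adjusted p = 0.492), nor did any gene measured (0.0%, lowest adjusted p = 0.449). At an unadjusted p under 0.05, 9 members differed, all 9 lower at 60 min, while 4.37% of all genes were lower at 60 min by that measure and 8.57% differed in either direction. These 9 were *LYS9*, *HIS4*, *SER2*, *GDH1*, *HOM2*, *LYS4*, *GLN1*, *HIS1* and *PRO3*. The difference of *LYS9* was -1.07 (95% interval -1.81 to -0.33, adjusted p = 0.492) and that of *HIS4* was -0.98 (95% interval -1.68 to -0.27, adjusted p = 0.495). The 3 arrays of 60 min lay below all of those of 30 min for 10 members (7.49% of all genes) and above all of them for 0 members (8.66% of all genes). These 10 were the same 9 and *HIS2*.

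The mean was lower at 60 min for 31 of the 44 members, against 47.9% of all genes. Without *TRP1* and *LYS2* this held for 29 of 42. Of the 10 pathways, histidine and lysine had medians at 60 min that lay below those of 30 min in every array, while the other 8 overlapped. The histidine medians were -0.75, -0.79 and -0.66 at 60 min and -0.26, -0.51 and -0.34 at 30 min. The lysine medians were -1.04, -1.16 and -0.87 at 60 min and -0.76, -0.70 and -0.51 at 30 min. Without *LYS2* they were -1.25, -1.22 and -0.88 at 60 min and -0.80, -0.94 and -0.48 at 30 min, so that the times overlapped and the separation of lysine was lost. Tryptophan had no such shift, with medians of -0.67, -1.45 and -0.26 at 60 min and -1.50, -1.09 and -0.58 at 30 min. For *ARO4* the difference was 0.43 (95% interval -0.52 to 1.39) and for *THR1* 0.36 (95% interval -0.44 to 1.16), intervals that leave a change of over 2-fold upward possible. The largest difference upward among the members was that of *ARG1*, at 1.22 (95% interval -0.16 to 2.60, adjusted p = 0.595).

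**Figure D4:**
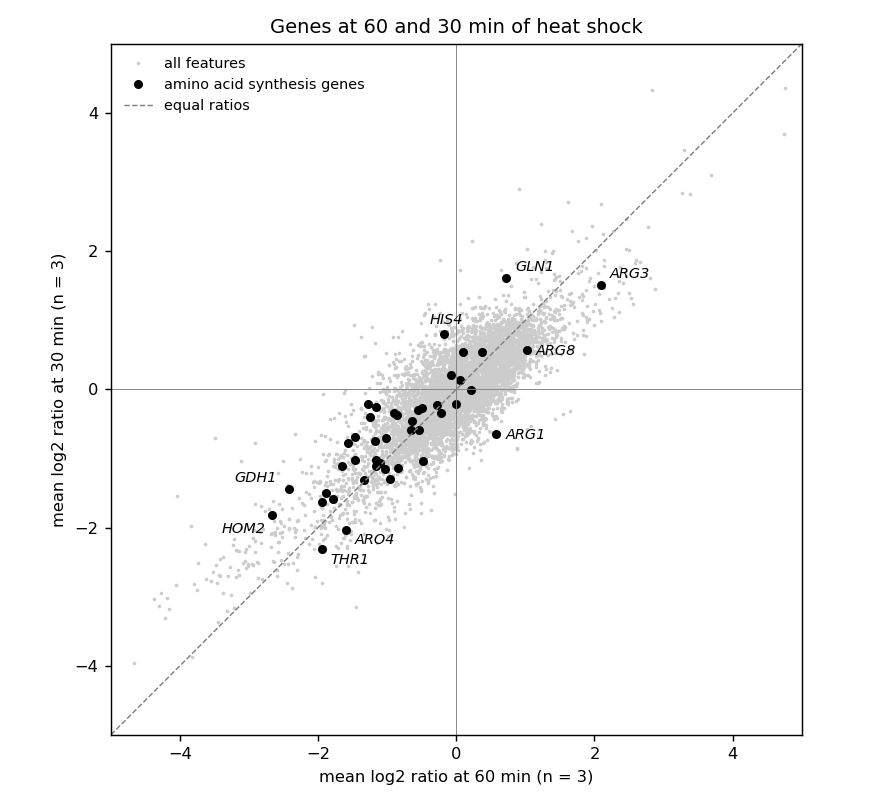
Mean log2 ratio at 60 min (x axis) and 30 min (y axis) of all 6019 genes (grey) and of the 44 amino acid synthesis genes (black), n = 3 arrays at each time. Most black points lie in the lower left quadrant, and 31 of 44 lie above the dashed line of equal ratios, where the ratio at 60 min is the lower one.

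Other genes of these pathways gave a mixed picture. They were taken from lists of textbook knowledge, chosen with earlier results of these data known. Of 12 further synthesis enzymes measured, 5 fell and 2 rose at 60 min, and 5 fell and 1 rose at 30 min, with a median log2 ratio of -0.67 and -0.42. Of all genes, 18.2% fell and 15.6% rose at 60 min, and 15.9% fell and 10.7% rose at 30 min. *ARO9* (YHR137W), an aromatic aminotransferase beside *ARO8*, fell by 1.94 ± 0.09 at 60 min (SD, n = 3, adjusted p = 0.000187) and 1.72 ± 0.51 at 30 min (SD, n = 3, adjusted p = 0.000524). *GLY1* (YEL046C), the threonine aldolase that makes glycine, fell by 0.85 ± 0.40 at 60 min (SD, n = 3, adjusted p = 0.0130, but 0.0697 leaving out 60 min array 2, 0.0543 with 60 min fitted alone and 0.0631 leaving out array 3 of both times) and 1.62 ± 0.19 at 30 min (SD, n = 3, adjusted p = 0.000568). *AAT2* (YLR027C), the cytosolic aspartate aminotransferase, fell by 1.38 ± 1.21 at 60 min (SD, n = 3, adjusted p = 0.0145, but 0.0595 leaving out 60 min array 2) and 1.45 ± 0.23 at 30 min (SD, n = 3, adjusted p = 0.0141). There the call was lost leaving out any 30 min array (adjusted p of 0.0584 to 0.1) or array 3 of both times (adjusted p = 0.0817).

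*SHM2* (YLR058C), the cytosolic serine hydroxymethyltransferase that turns serine into glycine, rose. It had log2 ratios of 3.85, 1.38 and 0.94 at 60 min (adjusted p = 0.0120) and 2.85, 1.60 and 0.60 at 30 min (adjusted p = 0.0351). As for *ARG3*, experiment 1 was highest and experiment 3 lowest at each time. The calls were lost leaving out 60 min array 1 (adjusted p = 0.0523 at 60 min) and leaving out 30 min array 1 or 2 (adjusted p = 0.268 and 0.138 at 30 min). With each print block centred they were lost as well (adjusted p = 0.0845 at 60 min and 0.0711 at 30 min). The mitochondrial isoenzyme *SHM1* (YBR263W) went the other way. It had -0.28, -1.40 and -0.32 at 60 min (adjusted p = 0.0601) and fell at 30 min, with -1.16, -1.28 and -1.10 (adjusted p = 0.00627).

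Of 13 regulators measured, 1 fell and 0 rose at 60 min, where 18.2% and 15.6% of all genes did. At 30 min 0 fell and 1 rose, where 15.9% and 10.7% of all genes did. *GCN4* (YEL009C) had log2 ratios of -1.30, -1.27 and -0.48 at 60 min (adjusted p = 0.0133, but 0.0659 leaving out 60 min array 2 and 0.0641 with array weights) and -1.38, -0.63 and -0.30 at 30 min (adjusted p = 0.0506, but 0.0303, 0.0443 and 0.0446 leaving out 60 min array 1, 2 or 3, and 0.00732 to 0.0497 in 5 other alternatives). Gcn4 is known to be controlled mainly at translation, which the arrays do not measure. *PUT3* (YKL015W), the activator of proline breakdown, rose by 0.63 ± 0.08 at 30 min (SD, n = 3, adjusted p = 0.0360), a call lost leaving out any 30 min array (adjusted p of 0.151 to 0.187) or array 3 of both times (adjusted p = 0.169). The regulators had medians of 0.20 at 60 min and 0.04 at 30 min.

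Beside the members, 10 of 11 branched-chain genes fell at 60 min and 7 at 30 min, and 0 rose at either time, with medians of -1.73 and -1.66. Of 16 sulfur and methionine genes, 4 fell and 5 rose at 60 min, and 5 fell and 4 rose at 30 min, with medians of 0.32 and 0.11. The shares of all genes were 18.2% that fell and 15.6% that rose at 60 min, and 15.9% and 10.7% at 30 min. The members' medians, -0.93 and -0.62, lay between those of the branched-chain and the sulfur and methionine genes at each time. Whether the lists differ was not tested.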

How the data were processed

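The authors scanned 6 cDNA microarrays at both powers with GenePix and scaled Cy5/Cy3 on negative control spots with Chip Cleanser. The deposited values are log ratios of unnamed base, read here as log2, the base under which the paper's 2-fold rule picks about as many genes as the study selected. Calls by limma do not depend on the base, while fold changes and counts over 2-fold do. The 12 scans gave 6 arrays, since the scans of an array differed in 0 values. Of 6912 probes, 6162 had values and 5446 of these a symbol in GEO's platform annotation, which was matched to the members by name. Probes that share all values (203, in 78 groups) entered once, those of *TRP5* and *CPA1* with an unnamed probe each. Distinct probes of 1 gene (18 genes) were averaged, and 2 values at each time were required, which left 6019 features. Intensities were not used.

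In limma 3.58.1 (R 4.3.3), 1 model held both times (4 residual and 6.76 prior degrees of freedom). It tested each time's mean against 0 and 60 against 30 min. Benjamini-Hochberg adjustment over all features followed, with a threshold of 0.05. The script was first tested on simulated data. The SD is that of 3 arrays.

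The members and lists were chosen with earlier results of these data known. Values in every array are given for auxotrophic markers, isoenzyme pairs, members that rose, members with a passed test and means of opposite sign at the times, and up to 3 members of each pathway that changed at both times. *ARG1* was added after its values were seen. From other lists, up to 4 genes that passed were named by size, beside *GCN4* and *LEU2*. *ARG2*, *SHM1*, *PUT2* and *LYS5* were added after their values were seen, and no alternatives are given for them. Alternatives were centred or scaled arrays, single scans, complete features, separate probes, each time fitted alone, array weights, robust moderation, a replicate block, centring of 192 print blocks (read from probe numbers), other fold rules and log bases, and each array left out. Leaving out array 3 of both times, and leaving out *TRP1* and *LYS2*, were added once the data had been seen. No build is named for the array and no sequences were used, so coordinates and promoters are not given, and which genes are neighbours was taken from RefSeq (R64).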

Additional observations from a re-analysis of the deposited data

How the results depend on the processing

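Dim or unbound spots could not be told from others without intensities, and cDNA probes of isoenzymes may bind each other's transcripts, which was not tested. No member changed sign after a passed test in any alternative. Of 132 tests of members (60 min, 30 min and their difference), the alternatives kept the side of the threshold in 2215 values, lost a call in 85 and gained one in 32. Centred arrays and robust moderation moved no count or median beyond the replicate spread or 1.5 times. Either scan alone could not do so, since the scans hold the same values and repeat the main fit. These repeats are among the values counted as kept. Complete features and separate probes left the ratios of the members as they were and altered only the other features of the fit. They moved no count either. Arrays of 1 experiment were treated as unpaired in the main model. The deviations of arrays of experiments 1, 2 and 3 correlated across genes at -0.04, 0.12 and 0.35, which does not settle whether the arrays were paired. With the replicate block, 27 members fell and 3 rose at 60 min (19.5% and 17.4% of all genes), and 22 fell and 3 rose at 30 min (18.0% and 13.2%), and no member differed between the times (0). No alternative made any member differ between the times.

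The 3 members that rose at 30 min became 6 with scaled arrays, with each time alone and with array weights, and 5 with print blocks centred, while the share of all genes that rose, 10.7%, became 17.0%, 21.2%, 23.9% and 13.8%. With scaled arrays, each time alone and array weights *TRP1* was among the members gained. Scaling gave medians of -1.01 for lysine at 60 min and 0.15 for glutamate and glutamine at 30 min. Print block centring gave -0.62 for histidine at 60 min and 0.088 for glutamate and glutamine at 30 min. It also gave 2 members over 2-fold up at 60 min (5.86% of all genes), as did a mean ratio over 2-fold (7.49% of all genes). If all 3 experiments must pass, 11 members were over 2-fold down at 60 min (5.72% of all genes), and 6 down and 1 up at 30 min (5.75% and 1.81%). Leaving out 1 array gave 9 to 23 members that fell and 1 to 4 that rose at 30 min, where 6.93% to 20.7% and 2.19% to 16.8% of all genes did. It gave 11 to 18 over 2-fold down at 60 min (6.31% to 8.54% of all genes), and 6 to 12 down and 1 to 2 up at 30 min (6.36% to 8.86% and 2.26% to 3.41%), and a lysine median of -1.10 to -0.96 at 60 min. Without array 3 of both times 13 members fell at 30 min, and 9.17% of all genes. Without *TRP1* and *LYS2* the lysine median at 30 min was -0.85. The causes were not tested.

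Read as natural logarithms, the medians at 60 min were -1.34 for the members, -1.92 for shared aromatic, -1.08 for histidine, -1.67 for lysine, -2.77 for homoserine and threonine and -1.76 for asparagine. At 30 min they were -0.89 for the members, -1.90 for shared aromatic, -1.60 for tryptophan, -0.55 for histidine, -0.99 for lysine, -2.40 for homoserine and threonine, 0.20 for glutamate and glutamine, -1.57 for asparagine and -0.85 for proline. Then 2 members were over 2-fold up at 60 min and 23 down at 30 min (14.8% and 17.0% of all genes). Read as log10, the medians at 60 min were -3.08 for the members, -4.42 for shared aromatic, -3.16 for tryptophan, -2.49 for histidine, -3.84 for lysine, 1.92 for arginine, -1.94 for serine, -6.38 for homoserine and threonine, -4.05 for asparagine and -1.81 for proline. At 30 min they were -2.05 for the members, -4.37 for shared aromatic, -3.67 for tryptophan, -1.26 for histidine, -2.28 for lysine, -0.77 for serine, -5.53 for homoserine and threonine, 0.45 for glutamate and glutamine, -3.61 for asparagine and -1.97 for proline. Then 4 members were over 2-fold up at 60 min, and 6 up and 30 down at 30 min (35.2%, 32.7% and 32.9% of all genes). These shifts follow from the base itself.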

Other observations

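Enzymes that break amino acids down were described by a list of their own, and 11 of them were measured. At 60 min 5 rose and 3 fell (15.6% and 18.2% of all genes did), and at 30 min 6 rose and 4 fell (10.7% and 15.9%). The medians were 0.17 and 0.78. *GCV1* (YDR019C), a subunit of the mitochondrial glycine cleavage complex, had log2 ratios of 3.92, 1.96 and 1.88 at 60 min (adjusted p = 0.000507 from limma) and 2.37, 1.63 and 1.48 at 30 min (adjusted p = 0.00494, but 0.0558 leaving out 30 min array 1). The other subunits of the list, *GCV2* and *GCV3*, were added after their values were seen. *GCV3* rose by 1.41 ± 0.02 at 60 min (SD, n = 3, adjusted p = 0.00087) and 1.04 ± 0.44 at 30 min (SD, n = 3, adjusted p = 0.00627, but 0.0893 leaving out 30 min array 1). *GCV2* rose by 1.28 ± 0.84 at 60 min (SD, n = 3, adjusted p = 0.0311) and 2.00 ± 1.14 at 30 min (SD, n = 3, adjusted p = 0.00501). Its call at 60 min was lost leaving out 60 min array 2 or 3 (adjusted p = 0.178 and 0.113), without array 3 of both times (adjusted p = 0.0675) and with print blocks centred (adjusted p = 0.212), and that at 30 min leaving out 30 min array 1 or 2 (adjusted p = 0.057 and 0.0616).

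*PUT1* (YLR142W), the proline oxidase of mitochondria, had log2 ratios of 2.09, 1.43 and 0.70 at 60 min (adjusted p = 0.0065) and 1.53, 2.81 and 1.68 at 30 min (adjusted p = 0.00119). *PUT2* (YHR037W), also of proline breakdown, fell at 60 min, with -0.45, -1.02 and -0.32 (adjusted p = 0.0489). At 30 min *PUT2* had -0.15, -0.24 and -0.27 and did not pass (adjusted p = 0.451). *ARO10* (YDR380W), a decarboxylase of aromatic amino acid breakdown, fell by 1.96 ± 0.88 at 60 min (SD, n = 3, adjusted p = 0.00122) and 2.09 ± 0.56 at 30 min (SD, n = 3, adjusted p = 0.00116). *ASP1* (YDR321W), the cytosolic asparaginase, fell by 2.02 ± 0.15 at 60 min (SD, n = 3, adjusted p = 0.000135) and 1.90 ± 0.45 at 30 min (SD, n = 3, adjusted p = 0.000265). The calls of *PUT1*, *ARO10* and *ASP1* were kept in every alternative tried.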
